A study of Mus musculus with 6 samples.

Results

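Genes for the uptake, storage and export of iron were followed in CD11c+ dendritic cells of the mouse spleen, with and without Map3k7, the gene for the kinase TAK1. The group was set by name as Trf, Tfrc, Slc40a1, Fth1, Slc11a1, Slc11a2, Ireb2, Aco1, Hfe and Spic, and its members are all probe sets that the platform annotation assigns to these symbols. Of the 10 genes, 8 had at least 1 probe set with a single symbol, 14 probe sets in all, among 17097 genes and 45037 probe sets tested. The 2 probe sets that list Slc11a2 also list a second gene and were not used, and the expression of Ireb2 was not analysed here.

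Wild-type C57Bl/6 mice formed the control group, and mice labelled Map3k7CreER the knockout group. Tamoxifen was given to all mice for 3 days, which in the second group switches on a Cre recombinase that deletes Map3k7. The labels do not name the promoter of the Cre, and they do not say which other cells of the mouse lost the gene, so deletion in the sorted cells, deletion elsewhere and the transgene cannot be told apart. Each group had 3 samples of CD11c+ cells purified from spleen by flow cytometry, each hybridised to 1 Affymetrix array. Whether the samples of a group were taken from different mice is not stated, and the p-values below reflect only how much the samples varied, which may be technical.

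Iron travels in blood bound to transferrin and enters cells when the transferrin receptor carries it into endosomes, from which a divalent metal transporter releases it to the cytosol. Ferritin, a shell of heavy and light chains, stores what is not used, and ferroportin is the only known exporter of iron from mammalian cells. When iron is scarce, the iron regulatory proteins, encoded by Aco1 and Ireb2, bind stem loops in target mRNAs, stabilise transferrin receptor mRNA and block translation of ferritin and ferroportin. In the spleen, red pulp macrophages, whose development needs the transcription factor SPI-C, take up aged red cells and return their iron to the blood.

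Values are log2 levels, and array medians lay between 3.77 and 3.81, so levels near 4 may hold little specific signal. Map3k7 was lower in knockout cells on 3 of its 5 probe sets, with differences of -3.25 to -2.34 (limma adjusted p between 0.000165 and 0.0181). The dendritic cell markers Itgax, which encodes CD11c, and Cd74, the invariant chain of MHC class II, read 11.16 and 13.05 in wild-type cells and 10.93 and 13.04 in knockout cells (means of 3 arrays). The difference between 3 prime and 5 prime control probe sets, a sign of RNA quality, was -0.08 and -0.15 for Gapdh and 0.29 and 0.33 for Actb in wild-type and knockout cells (exact permutation p = 0.7 and 0.5, 2-sided, smallest possible 0.1). The 3 Actb control probe sets were themselves lower on every knockout array, with differences of -0.18 to -0.15 (exact permutation p = 0.1 each). Precision is limited by having 3 arrays a group.

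Of the 14 probe sets of the group, 1 rose in knockout cells, that of Trf, and 0 fell, at an adjusted p under 0.05 (limma, p-values adjusted by Benjamini-Hochberg across the 45037 probe sets). Over all probe sets 0.804% were higher, 0.391% lower and 1.19% called in either direction by the same rule. The probe sets of Slc11a1, Fth1 and, on 1 of 2, Slc40a1 and Hfe had every knockout array above every wild-type array but did not pass. With Trf these made 5 of 14 probe sets whose knockout arrays all lay above, against 8.64% of all probe sets, and 0 of 14 whose knockout arrays all lay below, against 8.83%. In either direction the groups were apart on 17.5% of all probe sets. Some of the 14 share a gene. Taking the brightest probe set of each gene, knockout arrays all lay above in 3 of 8 and below in 0, each against 10.6% of all genes. At an unadjusted p under 0.05, 6 of the 14 differed, against 12.3% of all probe sets. The median difference over the 14 was 0.0077 on the log2 scale, beside -0.01 over all probe sets.

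**Figure D1:**
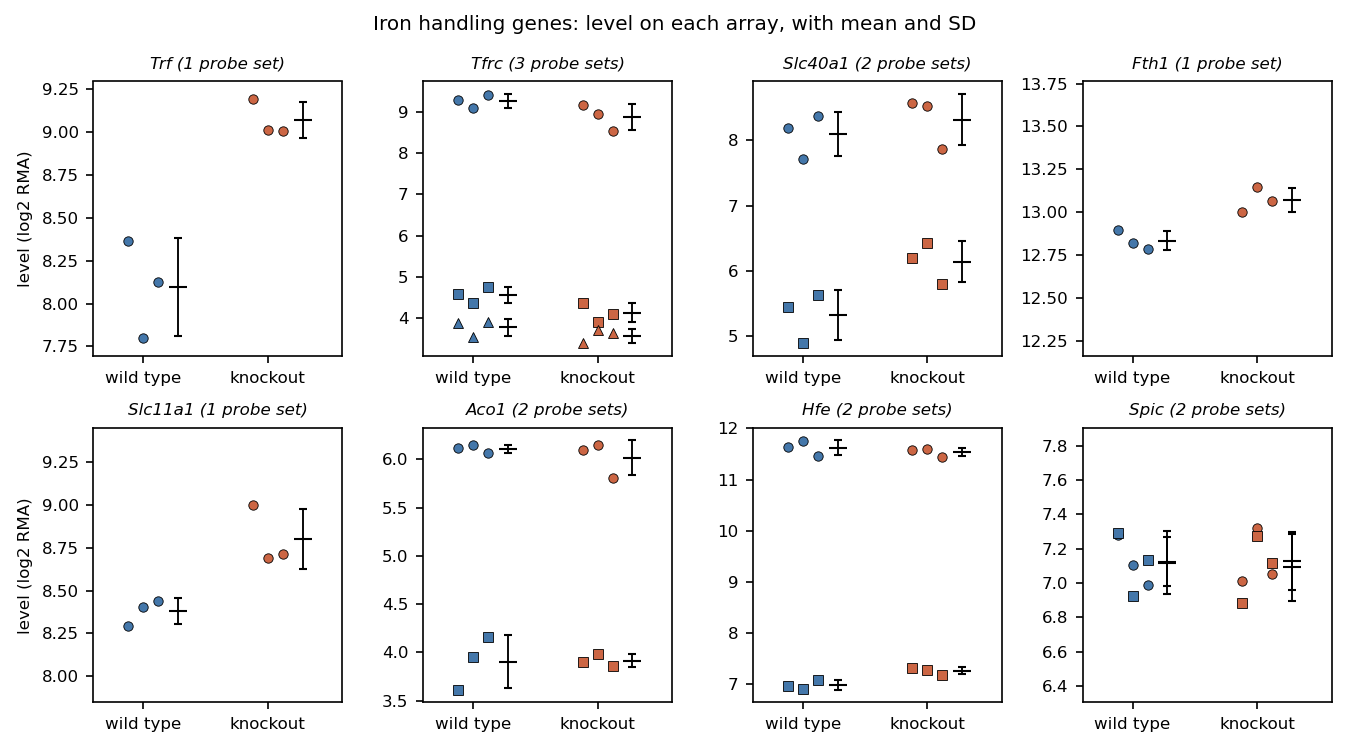
Level of each probe set of the 8 measured genes (y axis, log2 RMA value) in the 3 wild-type arrays (blue) and the 3 knockout arrays (orange), with circles, squares and triangles for the probe sets of a gene from the brightest down and bars for the mean and SD. The knockout arrays of Trf lie between 9.01 and 9.19, all above the wild-type arrays at 7.80 to 8.37, and the Spic arrays of both groups overlap.

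**Figure D2:**
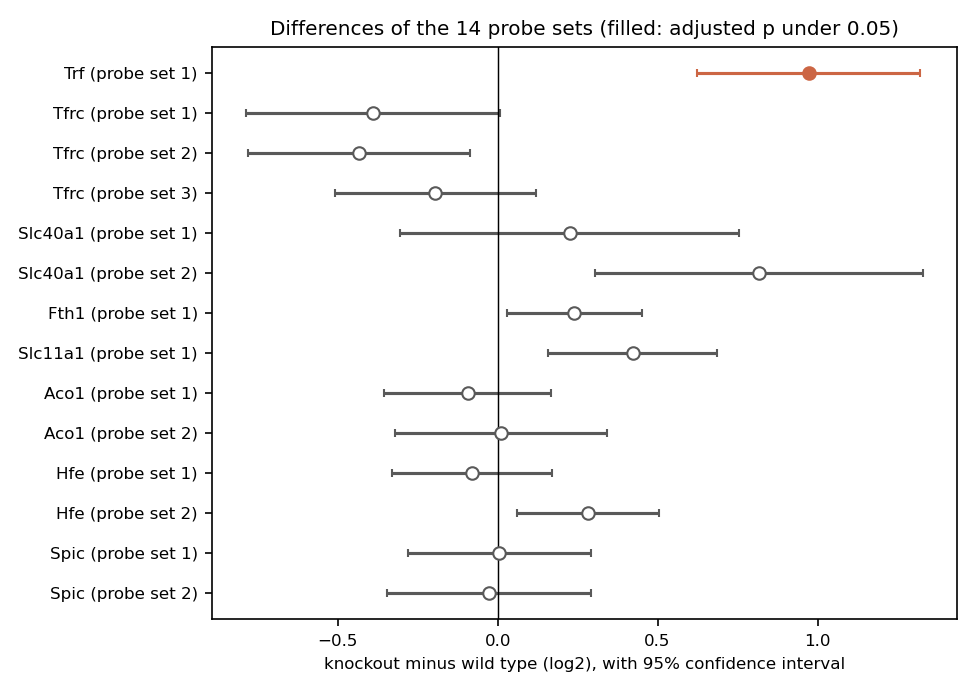
Knockout minus wild-type difference of each of the 14 probe sets (x axis, log2) with its 95% confidence interval from limma, with the probe sets of a gene numbered from the brightest. Trf, the filled point at 0.97, is the 1 probe set with an adjusted p under 0.05, and the Spic differences lie at 0.0047 and -0.03.

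Transcripts for proteins that carry iron to the cell and take it in come first. Trf, which encodes the blood's iron carrier transferrin, is made mainly in liver and is also transcribed in macrophages. Its probe set read 8.37, 7.80 and 8.13 in wild-type replicates 1 to 3 and 9.19, 9.01 and 9.01 in knockout replicates 1 to 3. The knockout arrays were close together and all lay above the wild-type arrays, of which replicate 2 was the lowest. The level rose from 8.10 ± 0.29 to 9.07 ± 0.11 (SD, 3 arrays each), which is 1.96-fold or 0.97 on the log2 scale (SE 0.15, 95% interval 0.62 to 1.32, limma adjusted p = 0.0291).

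The rise of Trf kept its direction with any of the 6 arrays left out, but passed the threshold in 1 of these 6 fits. Without wild-type replicate 1 the difference was 1.11 (limma adjusted p = 0.0446). It missed the threshold at 0.82 without wild-type replicate 2 (limma adjusted p = 0.065) and at 0.99 without wild-type replicate 3 (limma adjusted p = 0.0722). Without knockout replicates 1, 2 and 3 it was 0.91, 1.0 and 1.0, with limma adjusted p of 0.0569, 0.125 and 0.0672.

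Tfrc encodes the transferrin receptor, which is abundant on dividing cells and on erythroid precursors. Its brightest probe set read 9.30, 9.09 and 9.42 in wild-type cells and 9.17, 8.94 and 8.53 in knockout cells. Knockout replicate 3 was the lowest of the 6 arrays, and knockout replicate 1 lay within the wild-type range. The difference was -0.39 (SE 0.17, 95% interval -0.79 to 0.01), which did not pass (limma adjusted p = 0.417). It was -0.21 without knockout replicate 3, and down to -0.53 with another array left out. The second probe set read 4.58, 4.37 and 4.76 in wild-type cells and 4.38, 3.92 and 4.11 in knockout cells, and the dimmest lay between 3.39 and 3.91 on all arrays. These stood at -0.43 (SE 0.15) and -0.19 (SE 0.14), with limma adjusted p of 0.269 and 0.667, so all 3 Tfrc differences were negative and 0 passed. The 3 control probe sets that the array carries for the transferrin receptor, which hold no gene symbol and are not among the 14, were dim at 3.42 to 4.17 and differed by -0.06 to -0.02.

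Hfe encodes an MHC class I-like protein that binds the transferrin receptor and helps set hepcidin, the hormone that limits iron export. Its bright probe set read 11.63, 11.76 and 11.47 in wild-type cells and 11.58, 11.60 and 11.44 in knockout cells. The groups overlapped, with a difference of -0.08 (SE 0.11, 95% interval -0.33 to 0.17, limma adjusted p = 0.853). The second probe set, which the annotation ties to the same accession, read 6.95, 6.89 and 7.07 against 7.31, 7.27 and 7.18. There every knockout array was above every wild-type array, by 0.28 in the mean (SE 0.10, limma adjusted p = 0.26), without passing.

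Slc11a1 encodes NRAMP1, which pumps iron and manganese out of the phagosome of macrophages and is known for its part in resistance to intracellular bacteria. Its probe set read 8.29, 8.41 and 8.44 in wild-type cells and 9.0, 8.69 and 8.71 in knockout cells. All 3 knockout arrays were above the wild-type arrays, with replicate 1 the highest. The difference of 0.42 (SE 0.11, 95% interval 0.16 to 0.69), or 1.34-fold, did not pass (limma adjusted p = 0.155).

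Fth1 encodes the ferritin heavy chain, whose ferroxidase site oxidises iron as it enters the shell. It read 12.89, 12.82 and 12.78 in wild-type cells and 13.004, 13.147 and 13.06 in knockout cells. The groups did not overlap, but the gap between them was small, with a difference of 0.24 (SE 0.09, 95% interval 0.03 to 0.45, limma adjusted p = 0.33), which did not pass. These levels lie near the top of the array's range.

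The light chain Ftl1, which helps the iron core form and is not among the 14, lay the other way. It read 12.28, 12.53 and 12.37 in wild-type cells and 12.14, 12.05 and 12.09 in knockout cells, a difference of -0.30 (SE 0.10, limma adjusted p = 0.25) that did not pass either. The within-array difference of Fth1 minus Ftl1 was 0.44 ± 0.16 in wild-type and 0.98 ± 0.12 in knockout arrays (SD, 3 arrays each), which is 0.54 apart. The 3 knockout arrays, at 0.86, 1.09 and 0.98, all lay above the wild-type arrays, at 0.61, 0.29 and 0.42. The exact permutation test over arrays gave p = 0.1, the smallest it can give with 3 against 3, and 0.167 after Benjamini-Hochberg adjustment over the 5 within-array differences compared, which were chosen after values were seen.

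Slc40a1 encodes ferroportin, the iron exporter of red pulp macrophages, gut and liver. Its brighter probe set read 8.18, 7.72 and 8.37 in wild-type cells and 8.57, 8.52 and 7.86 in knockout cells, and its dimmer probe set 5.45, 4.89 and 5.63 against 6.19, 6.43 and 5.80. On both, wild-type replicate 2 was the lowest wild-type array and knockout replicate 3 the lowest knockout array. On the brighter probe set the groups overlapped, with a difference of 0.22 (SE 0.23, 95% interval -0.30 to 0.75, limma adjusted p = 0.795) that ran from 0.039 without wild-type replicate 2 to 0.45 without knockout replicate 3. On the dimmer they did not overlap, with a difference of 0.82 (SE 0.22, 95% interval 0.30 to 1.33), or 1.76-fold, which did not pass (limma adjusted p = 0.156).

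The platform annotation gives both Slc40a1 probe sets the same accession. The dimmer minus the brighter probe set differed by 0.59 between groups, without overlap (exact permutation p = 0.1, adjusted p = 0.167 over the 5 within-array differences). For Hfe this difference was 0.36, also without overlap (exact permutation p = 0.1, adjusted p = 0.167), and with 3 arrays against 3 none of these could pass. The Spic pair differed by -0.03 and the brightest pair of Tfrc by -0.04, each with overlap between groups (exact permutation p = 0.8 and 0.7, adjusted p = 0.8 for each). Where these probe sets lie on their transcripts was not analysed here.

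**Figure D3:**
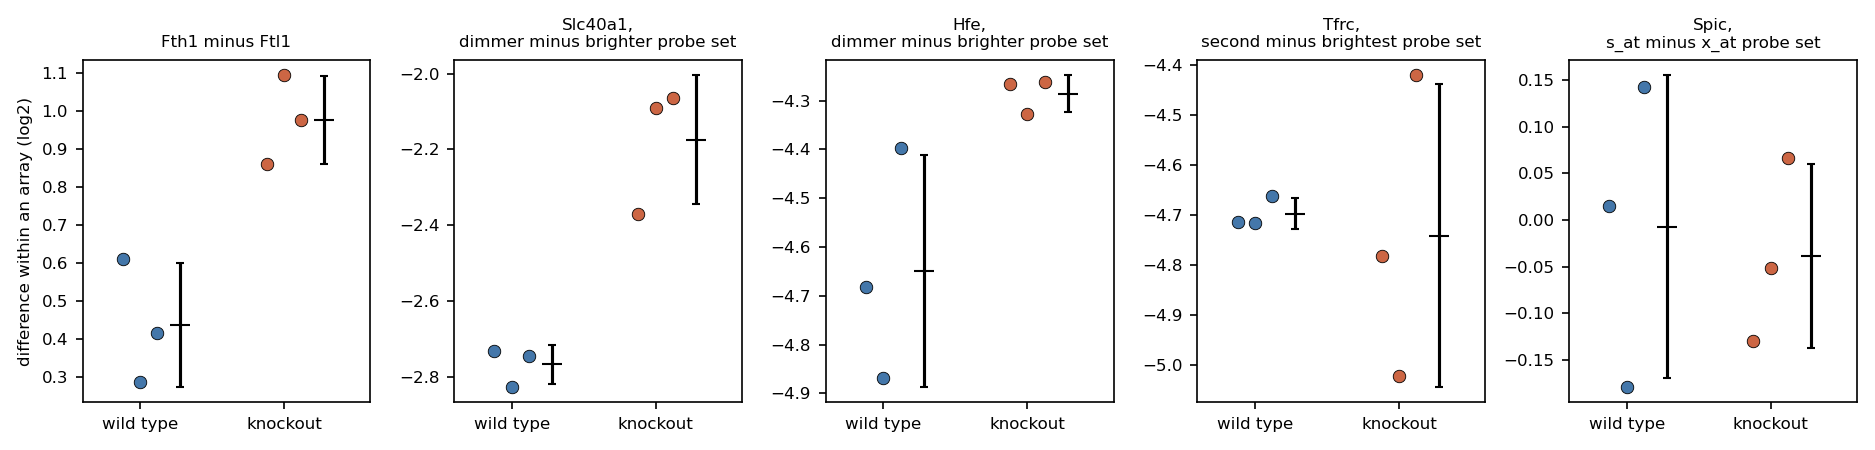
Difference between 2 probe sets within each array (y axis, log2) in wild-type (blue) and knockout (orange) arrays, with mean and SD, for Fth1 minus Ftl1 and for pairs of probe sets of Slc40a1, Hfe, Tfrc and Spic, each panel on its own scale. The heights depend on the probes and only the shift between groups is of use. The knockout arrays lie above the wild-type arrays for Fth1 minus Ftl1, Slc40a1 and Hfe, by 0.54, 0.59 and 0.36 in the mean, and the groups overlap for Tfrc and Spic, at -0.04 and -0.03.

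Both measured regulators differed little between groups. Aco1 encodes IRP1, which is cytosolic aconitase when it holds an iron-sulfur cluster and an RNA-binding protein when it does not. Its brighter probe set read 6.11, 6.15 and 6.06 in wild-type cells and 6.09, 6.14 and 5.81 in knockout cells, with overlap and a difference of -0.09 (SE 0.11, 95% interval -0.35 to 0.17, limma adjusted p = 0.833). Its other probe set was dim, between 3.61 and 4.15 on all arrays, and stood at 0.01 (SE 0.14, limma adjusted p = 0.989).

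Spic was measured by 2 probe sets whose IDs end in x_at and s_at, which means that their probes can match other transcripts as well. The first read 7.28, 7.11 and 6.99 in wild-type cells and 7.01, 7.32 and 7.05 in knockout cells, and the second 7.29, 6.93 and 7.13 against 6.88, 7.27 and 7.12. The groups overlapped on both, with differences of 0.0047 (SE 0.12, 95% interval -0.28 to 0.29) and -0.03 (SE 0.14, 95% interval -0.35 to 0.29) and limma adjusted p of 0.995 and 0.968. These intervals leave out a change of the size of Trf's in either direction. The sign of Spic and of Aco1 changed with arrays left out, so neither has a direction here.

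Promoter sequence was read from RefSeq, build GRCm38.p6, for 7 of the 10 genes, as the 250 bases before each annotated start. Trf, Slc40a1 and Slc11a2 were not among the 7, so the counts below do not cover Trf, whose probe set passed. Both strands were searched for GAGGAA, the PU box that SPI-C and its relative PU.1 bind, and for TGACNNNGC, the antioxidant response element through which NRF2 and BACH1 act on several iron genes. The PU box was found in 1 of 9 windows of the group, that of Slc11a1, and in 23.3% of 32851 promoter windows of this length. The antioxidant response element was found in 1 of 9, that of Hfe, and in 10.2% of all windows. These 2 windows are printed because they hold a match, and the other 7, those of Fth1 among them, held neither motif. Capitals mark the match, 152 to 147 bases before the start in Slc11a1 and 67 to 59 bases before it in Hfe, and a match of letters is not a binding site.
Slc11a1 (GRCm38.p6, chr1:74374953-74375202, plus strand): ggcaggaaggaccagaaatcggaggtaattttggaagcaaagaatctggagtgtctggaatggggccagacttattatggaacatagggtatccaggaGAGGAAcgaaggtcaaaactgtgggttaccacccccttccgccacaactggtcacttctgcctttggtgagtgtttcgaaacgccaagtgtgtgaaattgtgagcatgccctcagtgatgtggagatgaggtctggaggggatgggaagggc
Hfe (GRCm38.p6, chr13:23710855-23711104, minus strand): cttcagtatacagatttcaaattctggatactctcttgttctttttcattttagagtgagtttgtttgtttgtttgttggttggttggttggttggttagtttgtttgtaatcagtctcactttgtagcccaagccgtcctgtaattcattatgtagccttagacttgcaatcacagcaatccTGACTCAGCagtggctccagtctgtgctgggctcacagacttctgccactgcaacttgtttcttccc

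Other genes of iron and heme handling came from 7 lists drawn up from textbook roles, none of them members, of which 76 genes were measured, each by its brightest probe set. By limma 0 of these 76 rose and 0 fell, where 1.67% of all genes were called, 1.08% as higher and 0.591% as lower. At an unadjusted p under 0.05, 11 of the 76 differed, against 16.4% of all genes. All knockout arrays lay above in 8 of the 76 and below in 8, against 10.6% and 10.6% of all genes. Their median difference was -0.02, the same to 2 decimals as that of all genes, -0.02. Counting every probe set of these genes, 1 of 135 was higher and 0 lower. It was the dimmer of 2 for Slc48a1, the transporter that moves heme out of the phagolysosome, and was singled out after its value was seen. It rose by 0.63 (SE 0.11, limma adjusted p = 0.0497), from 5.86, 6.02 and 6.20 to 6.74, 6.65 and 6.58, while the brighter Slc48a1 probe set stood at -0.03 (limma adjusted p = 0.974). With any 1 array left out the dimmer ran from 0.55 to 0.72 and passed only without wild-type replicate 3 (highest limma adjusted p = 0.191).

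Among 15 uptake and endosomal genes, with a median of 0.03, Lcn2, the siderophore-binding lipocalin, stood at 0.73 (limma adjusted p = 0.229) from a wild-type level near the array median. Snx3, a sorting nexin that recycles the transferrin receptor, stood at -0.23 (limma adjusted p = 0.431). Among 9 storage and turnover genes, with a median of -0.07, Ftl1 is given above and Fbxl5, the iron-sensing ubiquitin ligase adaptor that removes the iron regulatory proteins, stood at 0.34 (limma adjusted p = 0.22). Fbxl5 read 8.03, 7.84 and 8.15 in wild-type cells and 8.38, 8.36 and 8.30 in knockout cells, without overlap.

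The export list held the largest differences of either sign. Bmp2, a bone morphogenetic protein that in liver endothelium drives hepcidin, read 6.82, 5.83 and 6.12 in wild-type cells and 5.41, 4.91 and 5.07 in knockout cells. The groups did not overlap, with a difference of -1.13 (SE 0.25), which did not pass (limma adjusted p = 0.089). Neo1, the receptor neogenin that binds hemojuvelin, stood at 0.85 (SE 0.19, limma adjusted p = 0.093), from 4.0 ± 0.38 to 4.85 ± 0.17 (SD, 3 arrays each). At its wild-type level there may be little specific signal. Neo1 passed as the mean of its 4 probe sets (0.68, limma adjusted p = 0.0351) and without wild-type replicate 3 (1.07, limma adjusted p = 0.0253). The other 8 measured genes of this list, among them Hamp for hepcidin and the ferroxidases Heph and Cp, lay between -0.18 and 0.23.

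Heme handling centred on Hmox1, heme oxygenase 1, which frees iron from heme and is itself induced by heme. It read 8.01, 8.39 and 7.93 in wild-type cells and 7.47, 7.64 and 7.61 in knockout cells. All knockout arrays were below the wild-type arrays, with a difference of -0.53 (SE 0.14, 95% interval -0.85 to -0.22) that did not pass (limma adjusted p = 0.134). Pgrmc1, a heme-binding membrane protein, stood at 0.29 (limma adjusted p = 0.381), and the median of the 13 genes was -0.05. Of 8 heme synthesis genes, with a median of -0.04, Fech, which inserts iron into heme, stood at 0.31 (limma adjusted p = 0.381) and Uros at -0.26 (limma adjusted p = 0.481).

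Of 16 genes for mitochondrial iron and iron-sulfur clusters, with a median of -0.06, the assembly factor Isca1 stood at 0.38 (limma adjusted p = 0.149) and the ferredoxin Fdx1 at -0.45 (limma adjusted p = 0.164), each without overlap between groups. Of 5 further mRNAs reported to carry an iron-responsive element, with a median of 0.02, Cdc14a stood at 0.35 (limma adjusted p = 0.478) and Cdc42bpa at 0.05 (limma adjusted p = 0.909).

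**Figure D4:**
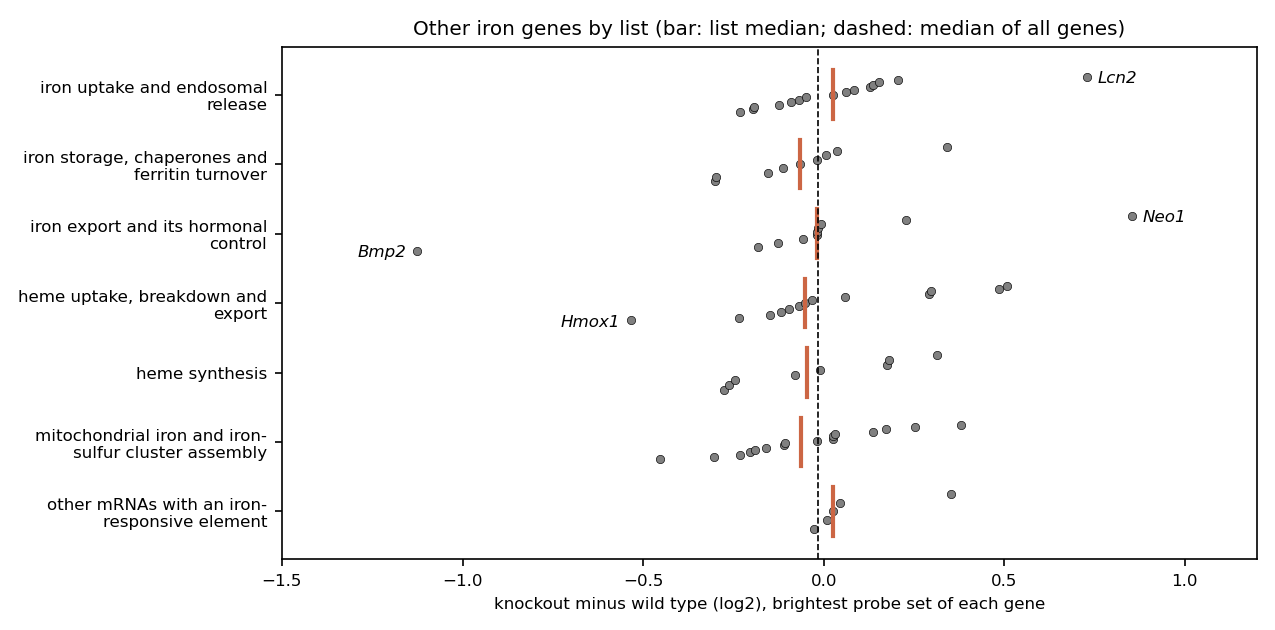
Knockout minus wild-type difference (x axis, log2) of the brightest probe set of each gene in the 7 lists of other iron and heme genes, with 1 point per gene, an orange bar at each list's median and a dashed line at the median of all genes, -0.02. The points furthest out are Bmp2 at -1.13 and Neo1 at 0.85, and 0 of the 76 genes passed the threshold.

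Markers of other cells moved on the same arrays. Beside the counts of every marker list below, 1.08% of all genes were called higher and 0.591% lower on their brightest probe set. In bulk samples, fewer cells of a type and less RNA per cell cannot be told apart. Of 15 red pulp macrophage markers 4 rose and 0 fell, with 11 differences positive and 4 negative and a median of 0.68: the mannose receptor Mrc1 by 2.31, the haemoglobin scavenger receptor Cd163 by 1.58, the macrophage protein Cd5l by 1.51 and the phagocytic receptor Mertk by 1.16 (limma adjusted p between 0.00658 and 0.0166). Of the 6 fits that each left out 1 array, Mrc1 passed in 6, Cd163 in 5 (all but that without knockout replicate 2), Mertk in 3 (those without wild-type replicate 3 or knockout replicate 1 or 3) and Cd5l in 2 (those without knockout replicate 1 or 3), with differences of at least 1.04. Cd163 rose from a wild-type mean of 3.81, near the array median. The mean level of the 15 was 6.86 to 6.98 in wild-type arrays and 7.22 to 7.69 in knockout arrays, without overlap. Among knockout arrays that mean was lowest in replicate 3. The log2 of their summed signal was 12.44 to 12.69 and 12.21 to 12.81, with overlap. The defining markers Adgre1, which encodes F4/80, and Vcam1 stood at -0.28 and 0.29 (limma adjusted p = 0.463 and 0.598). Treml4, at -0.93 (limma adjusted p = 0.168), was lower on every knockout array, Cd68 stood at -0.19 (limma adjusted p = 0.746), and Spic did not differ beyond its spread, as given above. The part of macrophage RNA in the values of Trf, Slc40a1, Slc11a1 and Fth1 was not tested.

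Erythroid precursors are rich in transferrin receptor and heme enzymes, and most of their markers lay the other way. Of 9 measured 1 fell and 0 rose, with 1 difference positive and 8 negative and a median of -0.25. The positive one was Gata1, higher on every knockout array by 0.23 in the mean (limma adjusted p = 0.421). The globin Hbb-b2 fell by 3.01 (limma adjusted p = 0.0325) on a probe set that can match several transcripts, passing only without wild-type replicate 3 or knockout replicate 1 when 1 array was left out (-3.57 to -2.66), and Hba-a1 stood at -3.57 (limma adjusted p = 0.0713). A dimmer Hba-a1 probe set, which can also match several transcripts, fell by 4.0 (limma adjusted p = 0.0352). The mean level of the list was 4.73 to 5.21 in wild-type and 3.91 to 4.32 in knockout arrays, and the log2 of its summed signal 9.47 to 11.38 and 7.27 to 8.28. Other erythroid markers were near the array median, among them the transcription factor Klf1 at 3.91 and 3.57 and the band 3 anion exchanger Slc4a1 at 3.92 and 3.68 (means of wild-type and knockout arrays). The part of these in the Hmox1 and Tfrc values was not tested.

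Proliferation genes, given beside Tfrc because dividing cells take up more iron, were all negative in difference, 9 of 9, with a median of -1.10. The replication helicase subunit Mcm2 fell by 1.51 (limma adjusted p = 0.029, and past the threshold only without knockout replicate 1 when 1 array was left out, at -1.79 to -1.29), and the thymidylate synthase Tyms stood at -1.23 (limma adjusted p = 0.0982). Their mean level was 9.18, 9.31 and 9.04 in wild-type arrays and 8.76, 8.0 and 8.09 in knockout arrays. Knockout replicate 1 was the highest of its group for this mean and on the brightest Tfrc probe set, and the wild-type arrays ranked in opposite orders. Ranks of so few arrays, with wild-type levels this close together, cannot show whether the levels go together. The log2 of the summed signal was 12.90 to 13.13 and 12.34 to 12.74. The part of proliferation in the Tfrc values was not tested.

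**Figure D5:**
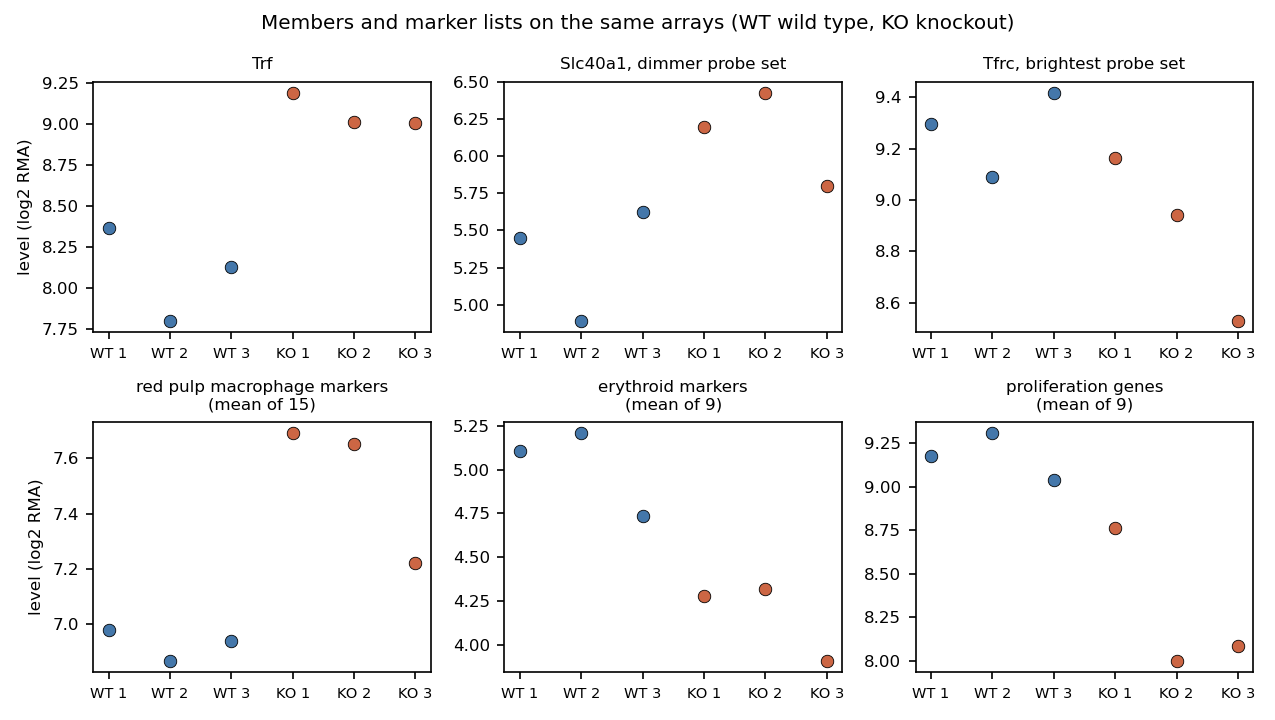
Level on each array (y axis, log2 RMA value; x axis, wild-type replicates WT 1 to 3 and knockout replicates KO 1 to 3) of Trf, the dimmer Slc40a1 probe set and the brightest Tfrc probe set, above the mean level of 15 red pulp macrophage markers, 9 erythroid markers and 9 proliferation genes. Trf and the macrophage mean are higher on every knockout array, and the erythroid and proliferation means are lower on every knockout array. The brighter Slc40a1 probe set, not drawn, overlapped between groups, with a difference of 0.22 (limma adjusted p = 0.795). The log2 of the summed macrophage signal, also not drawn, overlapped too, at 12.44 to 12.69 in wild-type and 12.21 to 12.81 in knockout arrays.

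Of 7 monocyte markers 1 rose, the integrin subunit Itgam (1.31, limma adjusted p = 0.0466, and past the threshold only without knockout replicate 1 when 1 array was left out, at 1.11 to 1.57), which dendritic cells also carry, while Cx3cr1 stood at -1.02 (limma adjusted p = 0.0654). Of 8 neutrophil markers 0 passed, with 6 differences positive and 2 negative and a median of 0.12. S100a8 stood at 2.28 (limma adjusted p = 0.147) and was highest in knockout replicate 2, at 9.29, the array on which Lcn2, a neutrophil granule protein as well, was highest too, at 5.03. In wild-type arrays Lcn2 read 3.64, 3.79 and 3.85, near the array median, so its order there cannot be set against that of S100a8. Mmp8 stood at 0.84 (limma adjusted p = 0.139), from a wild-type mean of 3.18, below the array medians. The mean level of these 8 was 4.08 to 4.34 in wild-type and 4.49 to 5.37 in knockout arrays, and their part in the Lcn2 values was not tested.

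Of 13 dendritic cell markers 0 passed on the brightest probe set, with 3 differences positive and 10 negative and a median of -0.21. All knockout arrays lay above in 2 of the 13, Flt3 at 0.35 and Dpp4 at 0.32 (limma adjusted p = 0.284 and 0.367), and below in 4. Of all genes, 10.6% lay above and 10.6% below. Cd8a, the marker of a subset, stood at -1.47 (limma adjusted p = 0.062) and the lineage factor Zbtb46 at -0.75 (limma adjusted p = 0.0621). On dimmer probe sets Cd8a fell by 1.44 (limma adjusted p = 0.0306) and Zbtb46 by 0.84 and 0.93 (limma adjusted p = 0.048 and 0.0287). Of 11 B, T and NK cell markers 0 passed, with Ms4a1 at -0.51 (limma adjusted p = 0.275) and Ncr1 at -0.22 (limma adjusted p = 0.425). The mean level was 10.77 to 10.85 and 10.44 to 10.58 for the dendritic cell list, and 4.92 to 4.98 and 4.69 to 4.79 for the lymphocyte list. The part of these shifts in the iron gene values was not tested.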

How the data were processed

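Expression was measured in 3 wild-type and 3 knockout samples, 1 array each. The authors deposited log2 values that RMA produced (Affymetrix Expression Console 1.1), as given in the submitters' processing notes. RMA normalizes arrays by quantiles and leaves no detection call. The log2 scale was read from the values. Of 45141 probe sets 104 controls were left out. The platform annotation gave 28898 of the rest 1 symbol, 551 several and 15588 none, and 28689 were matched to RefSeq by Entrez ID.

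The model was fitted to all probe sets with limma 3.58.1 under R 4.3.3 (lmFit, eBayes, no covariates), knockout minus wild type, Benjamini-Hochberg adjustment and a threshold of 0.05. Members and lists were chosen with earlier results of these data known. Every member probe set is named, and from each list at most 4 called genes, or the 2 of smallest p where under 2 were called, besides Map3k7 and, for cell identity, Itgax, Cd74, Adgre1, Vcam1, Klf1 and Slc4a1. Other genes are named for a list's range or after their values were seen. The fit was tested on simulated data of the same design, with the spreads shuffled among probe sets. It called 4 of 50 probe sets given a log2 change of 0.5 and 34 of 50 given a change of 1. Changes of these sizes can therefore be missed. Figures used matplotlib 3.10.9.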

Additional observations from a re-analysis of the deposited data

How the results depend on the processing

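The 14 probe sets were refitted under 15 alternatives each, or 14 where the alternative left the probe set out, and Trf was positive in all and passed in 10. The number of the 14 past the threshold was 1 in every alternative that kept all arrays and used 0.05, and 0 to 1 with 1 array left out. The other 13 passed in none. All probe sets past the threshold numbered 538, 993 with the replicate block, 1156 at an adjusted p under 0.1 and 125 to 860 with 1 array left out. Iron-pathway genes past the threshold numbered 0, 1 with array weights (Neo1), 1 as means of probe sets (Neo1), 2 with the replicate block (Bmp2 and Neo1), and 0 to 1 with 1 array left out (Neo1, without wild-type replicate 3). The dimmer Slc48a1 probe set missed the threshold with the replicate block (limma adjusted p = 0.0597).

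The sign turned in these cases, and the cause was not tested. The Spic x_at probe set was -0.034 with quantile normalization and -0.014 with array weights. With 1 array left out it ran from -0.092 to 0.081, the Spic s_at probe set from -0.122 to 0.077, the dim Aco1 probe set from -0.136 to 0.136 and the brighter from -0.158 to 0.0092. As means of probe sets Spic was -0.011 and Hfe 0.101. Whether replicate numbers pair the samples could not be settled. The deviations of same-numbered arrays correlated at 0.05, 0.13 and 0.32, but arrays of different numbers were not compared. Leaving out controls that carry a member symbol gave no separate fit, since 0 do. The dimmer probe sets of Tfrc and Aco1 add little, which leaves the brightest probe set of each to go by.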
